A study of Sus scrofa with 11 samples.

Results

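The 9 genes described here build, break down or regulate the glycogen store of skeletal muscle: GYS1, UGP2, GBE1, PPP1R3A, PYGM, PHKA1, PHKB, PHKG1 and PRKAG3. They were chosen by symbol, as the pig Ensembl gene IDs that carry these names, and with earlier results of these data known. Each symbol had exactly 1 ID, so they are 9 of the 25322 genes in the table, and all 9 had enough counts to be tested. RNA was sequenced from the longissimus lumborum, a large back muscle, of 11 female pigs aged 23 weeks, and the groups follow fibre counts from that muscle's histology. In the 7 fibre1 pigs, type I (slow, oxidative) fibres exceeded 17% and type IIB (fast, glycolytic) fibres stayed under 70%. In the 4 fibre2B pigs, type I fibres stayed under 8% and type IIB fibres exceeded 70%. No treatment or genotype was given in the labels, and each pig had 1 column of counts. The grouping itself is a natural difference between animals and not a manipulation. The question put to these genes was whether the mRNAs of glycogen synthesis and of glycogen breakdown differ between muscles rich and poor in type I fibres.

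Muscle stores glucose as glycogen by linking UDP-glucose, made by the enzyme that UGP2 encodes, into chains through glycogen synthase (GYS1), while the branching enzyme (GBE1) adds side chains. Phosphorylase (PYGM) releases glucose 1-phosphate from the same chains. It is switched on by phosphorylase kinase, whose alpha, beta and gamma subunits are encoded in muscle by PHKA1, PHKB and PHKG1 and whose remaining subunit is calmodulin, which lets calcium act on it. Protein phosphatase 1, brought to glycogen by the subunit that PPP1R3A encodes, reverses this and activates the synthase. PRKAG3 encodes a muscle-specific gamma subunit of the energy sensor AMPK. Variants of PRKAG3 and PHKG1 are known in pig breeding for their effects on muscle glycogen and meat quality.

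The deepest library, fibre1 pig 12, held 36374829 counts and the shallowest, fibre2B pig 14, held 14832736. Levels are given as CPM (counts scaled to a common library size, with TMM factors that correct for differences in RNA composition) and folds as log2 of fibre1 over fibre2B with their standard error. The tissue label was checked on skeletal muscle markers, of which 4 of 9 (ACTA1, DES, TNNC2 and NEB) had an ID. Their summed level was 110054 to 232852 CPM in fibre1 and 96632 to 120656 CPM in fibre2B. Slow-fibre markers (5 of 10 with an ID) summed to 7295 to 25591 CPM in fibre1 and 2345 to 8860 CPM in fibre2B, so the groups overlapped. Fast-fibre markers (6 of 10 with an ID) summed to 82484 to 171006 CPM in fibre1 and 85794 to 101055 CPM in fibre2B. All 6 had a log2 fold change above 0, with a median of 0.42, as had all 5 slow-fibre markers, with a median of 0.95, and 0 of these 11 passed edgeR's test (3 slow-fibre and 2 fast-fibre markers had an unadjusted p under 0.05). Of the marker genes with an ID, 0 were at 0 in every pig. Some libraries stood apart. In fibre1 pigs 5 and 6 the 10 most abundant genes took 45.2% and 44.1% of counts, against 32.9% to 38.1% in the other 9 pigs, and their TMM factors were the lowest (0.718 and 0.779). Fibre2B pig 14 had the highest summed levels of adipocyte, fibroblast, blood, leukocyte and liver markers. Results that rest on these pigs are given with and without them. In a bulk sample, fewer cells of a type and less RNA per cell cannot be told apart.

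Among the 9 glycogen genes, GYS1 was higher in fibre1 and the other 8 did not pass the test. Of all 11329 genes tested, 9.01% passed an adjusted p of 0.05 in edgeR's quasi-likelihood test with Benjamini-Hochberg adjustment (4.38% higher and 4.63% lower in fibre1). A count of 1 of 9 is near that background. Log2 fold changes were above 0 for GYS1, PYGM and PHKG1 and below 0 for the other 6, where 49.3% of all genes tested were below 0. The median over the 9 genes was -0.05, beside 0.0073 over all genes tested, and the median size of the change was 0.26, beside 0.32. An unadjusted p under 0.05 was reached by GYS1, PPP1R3A and PYGM, 3 of 9, against 28.9% of all genes tested. GYS1 was the 1 member whose groups did not overlap, against 7.55% of all genes tested.

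**Figure D1:**
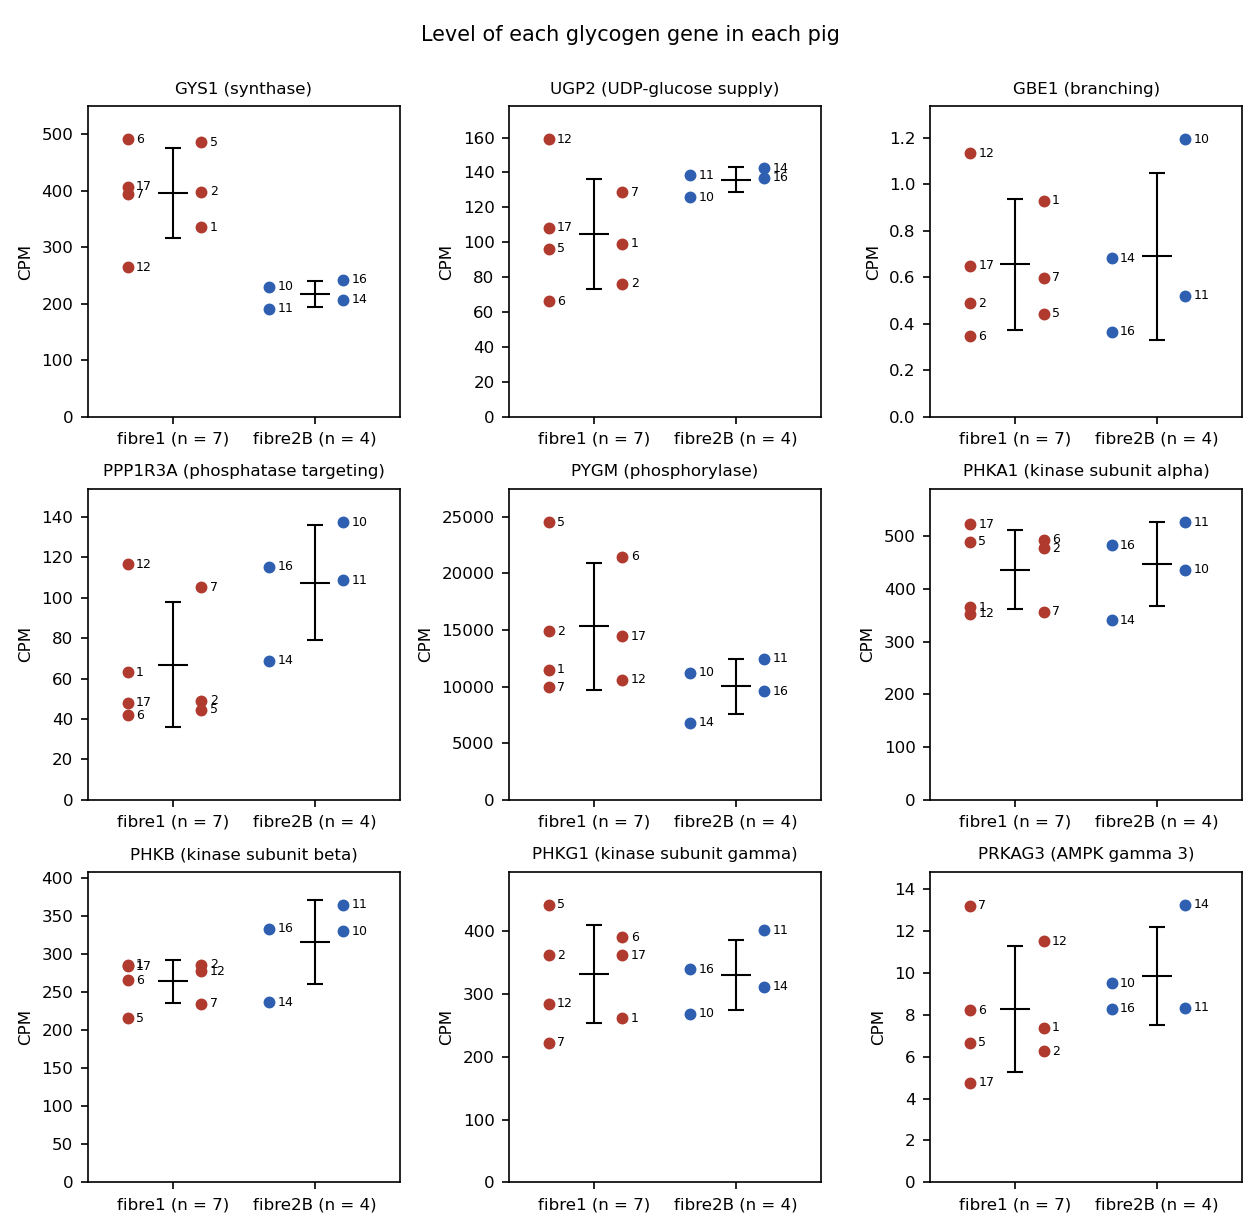
Level of each of the 9 glycogen genes in CPM (y axis, linear from 0) in each fibre1 pig (red, n = 7) and fibre2B pig (blue, n = 4), with pig numbers beside the points, and the group mean with its SD as bars. The groups are apart for GYS1 and overlap for the other 8 genes, and fibre1 pig 12 lies above every fibre2B pig for UGP2 and within the fibre2B range for PPP1R3A.

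The synthesis side comprised GYS1, UGP2 and GBE1. GYS1 (ENSSSCG00000003154), muscle glycogen synthase, ran from 265 CPM in pig 12 through a median of 399 to 491 CPM in pig 6 among the fibre1 pigs, against 231, 192, 207 and 242 CPM in fibre2B pigs 10, 11, 14 and 16. Every fibre1 pig was above every fibre2B pig, with fibre1 pig 12 the closest to them. Mean levels were 397 ± 79.7 CPM over the 7 fibre1 pigs and 218 ± 22.9 CPM over the 4 fibre2B pigs (mean ± SD, as in all means here). The log2 fold change was 0.86 ± 0.18 (SE; edgeR adjusted p = 0.0186). GYS1 lost its call without fibre2B pig 14 (log2 fold change 0.85, adjusted p = 0.0702) and without fibre1 pigs 5 and 6 together (0.73, adjusted p = 0.0548). Over 24 alternative settings its log2 fold change stayed between 0.64 and 0.94.

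UGP2 (ENSSSCG00000008368), which supplies the UDP-glucose that the synthase uses, had a fold of the opposite sign to GYS1. Its levels in fibre1 ran from 66.3 CPM in pig 6 through a median of 99.1 to 159 CPM in pig 12, against 126, 138, 142 and 137 CPM in fibre2B pigs 10, 11, 14 and 16. The 4 fibre2B pigs lay close together, 5 of the 7 fibre1 pigs were below all of them, and pig 12 was above all of them. The means were 105 ± 31.4 CPM in fibre1 and 136 ± 7.11 CPM in fibre2B. The log2 fold change was -0.37 ± 0.20 (edgeR adjusted p = 0.236), a difference that did not pass the test. Without fibre1 pig 12 it was -0.50 (adjusted p = 0.0652) and without fibre1 pigs 5 and 6 it was -0.25.

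GBE1 (ENSSSCG00000012000), the branching enzyme gene, had 169 reads in all 11 pigs together, so its level was poorly measured. It ran from 0.347 through a median of 0.597 to 1.13 CPM in fibre1, against 1.19, 0.520, 0.681 and 0.365 CPM in fibre2B pigs 10, 11, 14 and 16. The ranges nearly coincided. The log2 fold change was -0.05 ± 0.40 (edgeR adjusted p = 0.951), and its sign turned under several settings, with a range of -0.26 to 0.35 when single pigs were left out. Its coefficient of variation was 42.9% in fibre1 and 52.1% in fibre2B. No difference in GBE1 was detected, and at these low counts and this spread one could have been missed.

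PPP1R3A (ENSSSCG00000016640), the subunit that holds protein phosphatase 1 on glycogen, had the lowest fold of the 9 genes. In fibre1 it ran from 41.7 CPM in pig 6 through a median of 49.0 to 117 CPM in pig 12, against 137, 109, 68.8 and 115 CPM in fibre2B pigs 10, 11, 14 and 16. Here 5 of 7 fibre1 pigs lay below the lowest fibre2B pig, which was pig 14, while pigs 7 and 12 lay within the fibre2B range. The means were 66.9 ± 31.0 CPM in fibre1 and 108 ± 28.6 CPM in fibre2B, and the log2 fold change was -0.68 ± 0.30 (edgeR adjusted p = 0.147). It passed the threshold without fibre1 pig 12 (-0.88, adjusted p = 0.0454), with limma-voom quality weights (-0.92, adjusted p = 0.0291) and with 1 surrogate variable (-0.69, adjusted p = 0.0325). The change was smaller without fibre1 pigs 5 and 6 together (-0.49, adjusted p = 0.352) and without fibre2B pig 10 (-0.55, adjusted p = 0.316), and it was -0.84 without fibre2B pig 14 (adjusted p = 0.152).

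The breakdown side was led by PYGM (ENSSSCG00000013022), muscle phosphorylase, which alone took 83.8% to 93.2% of the reads of the 9 genes in each pig. That share is of reads and not of molecules, since gene lengths were not used. PYGM ran from 9933 CPM in pig 7 through a median of 14461 to 24535 CPM in pig 5 among the fibre1 pigs, against 11217, 12439, 6810 and 9586 CPM in fibre2B pigs 10, 11, 14 and 16. The groups overlapped, with 4 of 7 fibre1 pigs above the highest fibre2B pig. The means were 15337 ± 5621 CPM in fibre1 and 10013 ± 2434 CPM in fibre2B, and the log2 fold change of 0.62 ± 0.29 did not pass the test (edgeR adjusted p = 0.172).

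The PYGM values were highest in fibre1 pigs 5 and 6 (24535 and 21464 CPM), the same pigs in which the 10 most abundant genes took the largest share of counts. Without those 2 pigs the log2 fold change of PYGM was 0.30 (adjusted p = 0.431), and with that share as a covariate it was 0.33. Scaling by library totals alone gave 0.35, or 0.54 relative to the median of all genes, which that scaling moved to -0.19. Without fibre2B pig 14 it was 0.48. The summed skeletal muscle markers were also highest in fibre1 pig 5 and lowest in fibre2B pig 14. Their part in the PYGM values was not tested.

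Phosphorylase kinase turns phosphorylase on, and its 3 measured subunits did not pass the test. PHKA1 (ENSSSCG00000012411), the muscle alpha subunit, ran from 353 through a median of 477 to 523 CPM in fibre1, against 437, 527, 340.5 and 483 CPM in fibre2B pigs 10, 11, 14 and 16. The fibre2B range enclosed the fibre1 range, and the log2 fold change was -0.03 ± 0.17 (edgeR adjusted p = 0.918). PHKG1 (ENSSSCG00000007744), the muscle catalytic subunit, ran from 222 through a median of 361 to 442 CPM in fibre1, against 269, 401, 311 and 339 CPM in fibre2B. The fibre1 pigs reached both below and above the fibre2B pigs, and the log2 fold change of 0.01 ± 0.19 (adjusted p = 0.986) turned below 0 under 12 of 24 settings.

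PHKB (ENSSSCG00000002844), the regulatory beta subunit, was the least variable gene of the 9 within fibre1, with a coefficient of variation of 10.7%. It ran from 215 through a median of 277 to 286 CPM in fibre1, against 329.8, 364, 237 and 333 CPM in fibre2B pigs 10, 11, 14 and 16. Fibre2B pigs 10, 11 and 16 were above every fibre1 pig and pig 14 was within the fibre1 range. The means were 264 ± 28.1 CPM in fibre1 and 316 ± 55.0 CPM in fibre2B, and the log2 fold change was -0.26 ± 0.14 (edgeR adjusted p = 0.254). Without fibre2B pig 14 the log2 fold change was -0.37 (edgeR adjusted p = 0.1695). Leaving out fibre1 pigs 5 and 6 together gave -0.21 (adjusted p = 0.433). Its sign was negative in all 24 alternatives, with adjusted p from 0.154 to 0.492.

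PRKAG3 (ENSSSCG00000016200), the AMPK gamma subunit of glycolytic muscle, was lowly counted, with 2152 reads over all pigs. In fibre1 it ran from 4.76 CPM in pig 17 through a median of 7.38 to 13.2 CPM in pig 7, against 9.49, 8.32, 13.2 and 8.28 CPM in fibre2B pigs 10, 11, 14 and 16. Although 5 of 7 fibre1 pigs were below the lowest fibre2B pig, the lowest fibre2B pigs were close to the fibre1 pigs. Pigs 7 and 12 were again within the fibre2B range. The means were 8.28 ± 3.01 CPM in fibre1 and 9.83 ± 2.33 CPM in fibre2B. The log2 fold change was -0.24 ± 0.25 (edgeR adjusted p = 0.556), and -0.06 without fibre2B pig 14.

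**Figure D2:**
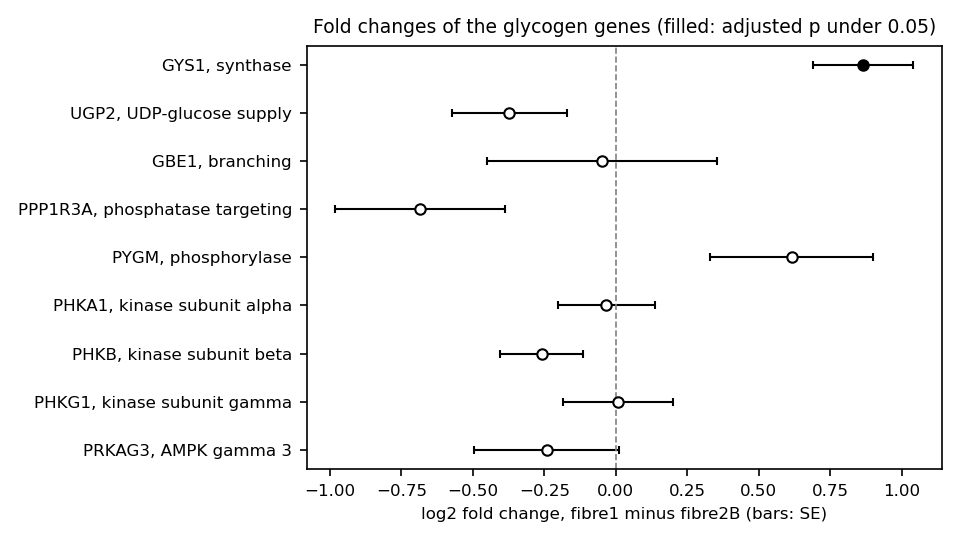
Log2 fold change of fibre1 over fibre2B for the 9 glycogen genes (x axis) with bars of 1 SE, filled where the edgeR adjusted p was under 0.05. GYS1 at 0.86 is the filled point, PYGM at 0.62 and PPP1R3A at -0.68 are the largest changes that did not pass.

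Synthesis and breakdown were then compared within each pig, where the scaling between libraries does not enter. The genes differ in length, so these read ratios can be read only across pigs. GYS1 had 1.98 to 3.97 reads per 100 PYGM reads in fibre1 (median 2.68), against 2.06, 1.54, 3.04 and 2.53 in fibre2B pigs 10, 11, 14 and 16, and the groups overlapped. All synthesis reads (GYS1, UGP2 and GBE1) per 100 breakdown reads (PYGM, PHKA1, PHKB and PHKG1) were 2.27 to 4.87 in fibre1 (median 3.30), against 2.92, 2.41, 4.55 and 3.53 in fibre2B. Both groups thus covered much the same range for this summed ratio. PYGM held 83.8% to 93.2% of the reads of the glycogen genes described here, so the breakdown sum was mostly PYGM. The summed ratio therefore says little about the kinase subunits, against which GYS1 is set below. The median log2 fold change was -0.05 over the 3 synthesis genes and -0.01 over the 4 breakdown genes. The synthesis median is the value of the poorly measured GBE1, which lay between GYS1 at 0.86 and UGP2 at -0.37. The breakdown genes ran from -0.26 for PHKB to 0.62 for PYGM. Neither median therefore describes its side as a whole.

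Further ratios, chosen after the values were seen and given as a description, separated genes within each side. GYS1 reads per 100 reads of the 3 kinase subunits were 29.0 to 48.4 in fibre1 (median 36.8), against 22.3, 14.8, 23.3 and 21.0 in fibre2B, with no overlap. PYGM reads per kinase subunit read were 11.6 to 21.4 in fibre1 (median 12.6), against 10.8, 9.63, 7.67 and 8.30 in fibre2B, again with no overlap. The lowest fibre1 and the highest fibre2B pig were close in the PYGM ratio and farther apart in the GYS1 ratio. UGP2 reads per 100 GYS1 reads were 13.5 to 59.9 in fibre1 (median 26.6), against 54.5, 72.2, 68.7 and 56.4 in fibre2B, and 6 of 7 fibre1 pigs were below all fibre2B pigs. PPP1R3A reads per 100 GYS1 reads were 8.49 to 44.0 in fibre1 (median 12.3), against 59.6, 56.7, 33.2 and 47.6 in fibre2B, with 6 of 7 fibre1 pigs below. Pig 12 was the fibre1 pig inside the fibre2B range in both ratios. Within the kinase, PHKB reads per 100 PHKA1 reads were 44.0 to 78.6 in fibre1 (median 59.8), against 75.5, 69.1, 69.5 and 68.8 in fibre2B, with 5 of 7 fibre1 pigs below. PHKG1 per 100 PHKA1 reads overlapped throughout, with 62.2 to 90.2 in fibre1 against 61.5, 76.2, 91.4 and 70.2 in fibre2B.

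**Figure D3:**
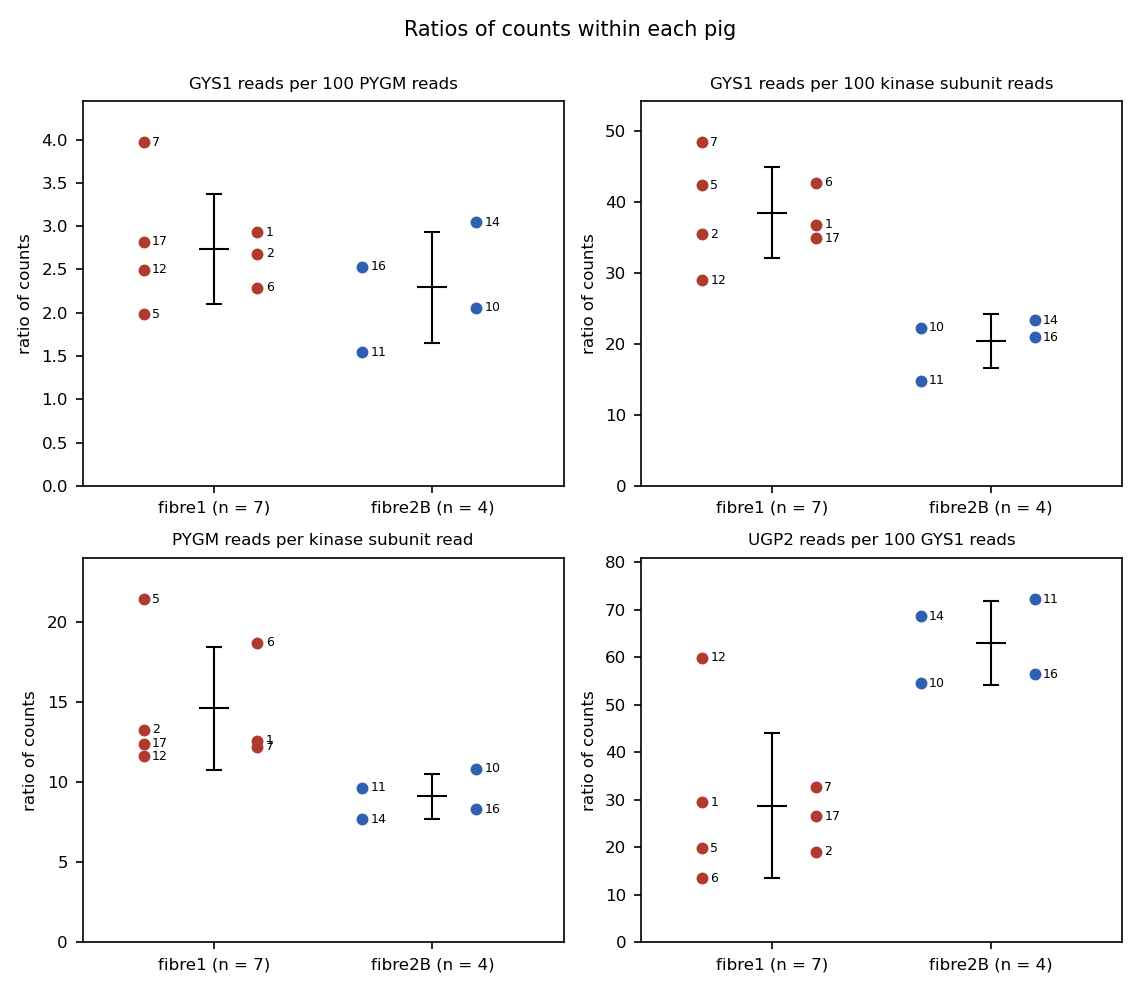
Ratios of read counts within each fibre1 pig (red, n = 7) and fibre2B pig (blue, n = 4), on linear axes from 0, with group means and SD as bars and pig numbers beside the points. GYS1 per 100 PYGM reads overlaps between groups, GYS1 and PYGM against the kinase subunits do not, and fibre1 pig 12 (59.9) lies with the fibre2B pigs for UGP2 per 100 GYS1 reads.

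How close the 9 genes stayed to one another over the 11 pigs was described by the root mean square difference of their centred log2 CPM. A small value means that a pair stayed close, which genes that vary little do whether or not they move together. The closest pairs were the kinase subunits PHKA1 and PHKG1 (0.18) and PHKA1 and PHKB (0.25), followed by GYS1 and PYGM (0.35). PPP1R3A was farthest from both GYS1 and PYGM (1.02 each). The same measure was taken against all other tested genes with a symbol. Nearest to GYS1 were FXR2 and GATAD2A (0.14 each) and ASB13 (0.17), where GYS1 itself varied by 0.47 about its mean. PYGM was nearest to NFKBIL1 and PABPC4 (0.16 each) and to ACTA1, skeletal alpha actin (0.17), with a spread of its own of 0.50. PRKAG3 was nearest to NRIP1 (0.20), KANSL1L (0.21) and RFWD3 (0.22), with a spread of its own of 0.41.

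The isoform table showed how reads of a gene were divided among its transcripts, as the authors' software estimated it. In it 7 of the 9 genes had 1 isoform each, and PHKA1 and PRKAG3 had 3 each. The single isoform of a gene holds the same reads as the gene and adds no separate evidence. Of 12212 isoforms tested 5.39% passed, and no tested isoform of PHKA1 or PRKAG3 did (edgeR adjusted p from 0.726 to 0.988).

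For PHKA1, isoform ENSSSCT00000028904 held 66.7% to 91.7% of the reads in fibre1 (median 88.9%), against 84.0%, 89.4%, 85.4% and 82.6% in fibre2B pigs 10, 11, 14 and 16. ENSSSCT00000025272 held most of the rest, 8.34% to 33.3% in fibre1 (median 10.4%), against 15.5%, 10.6%, 14.6% and 17.4% in fibre2B. The fibre1 pigs spread around the fibre2B pigs in both directions. Its share was highest in fibre1 pig 12, with 4561 reads (33.3%, 95% Wilson interval 32.5% to 34.0%). The log2 fold changes of the 2 isoforms were 0.08 ± 0.28 for ENSSSCT00000025272 (edgeR adjusted p = 0.878) and -0.05 ± 0.22 for ENSSSCT00000028904 (adjusted p = 0.918).

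For PRKAG3 the division was more uneven between pigs than between groups. Isoform ENSSSCT00000017641 held 12.9% to 83.7% of reads in fibre1 (median 62.1%), against 78.5%, 47.6%, 47.2% and 84.8% in fibre2B pigs 10, 11, 14 and 16. ENSSSCT00000033825 was at 0 in fibre1 pigs 5, 7 and 12 and in fibre2B pigs 10 and 16. It reached 69.3% of reads in fibre1 pig 6 (97 of 140 reads, 95% Wilson interval 61.2% to 76.3%). Taking 3 counts as the limit that a count of 0 allows, its share could be up to 0.673% in pig 12, with 446 reads, and up to 2.88% in pig 5, with 104 reads. The 95% Wilson upper bounds were 0.854% and 3.56%. These limits cover counting error only and not the error of the estimated split. ENSSSCT00000036402 held 11.5% to 33.1% in fibre1 and 21.5%, 10.5%, 24.2% and 15.2% in fibre2B. Isoform usage, tested with edgeR's diffSpliceDGE, passed in 1.21% of 660 genes, and in neither PHKA1 (unadjusted p = 0.676) nor PRKAG3 (unadjusted p = 0.974), with an adjusted p of 0.99998 for each.

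**Figure D4:**
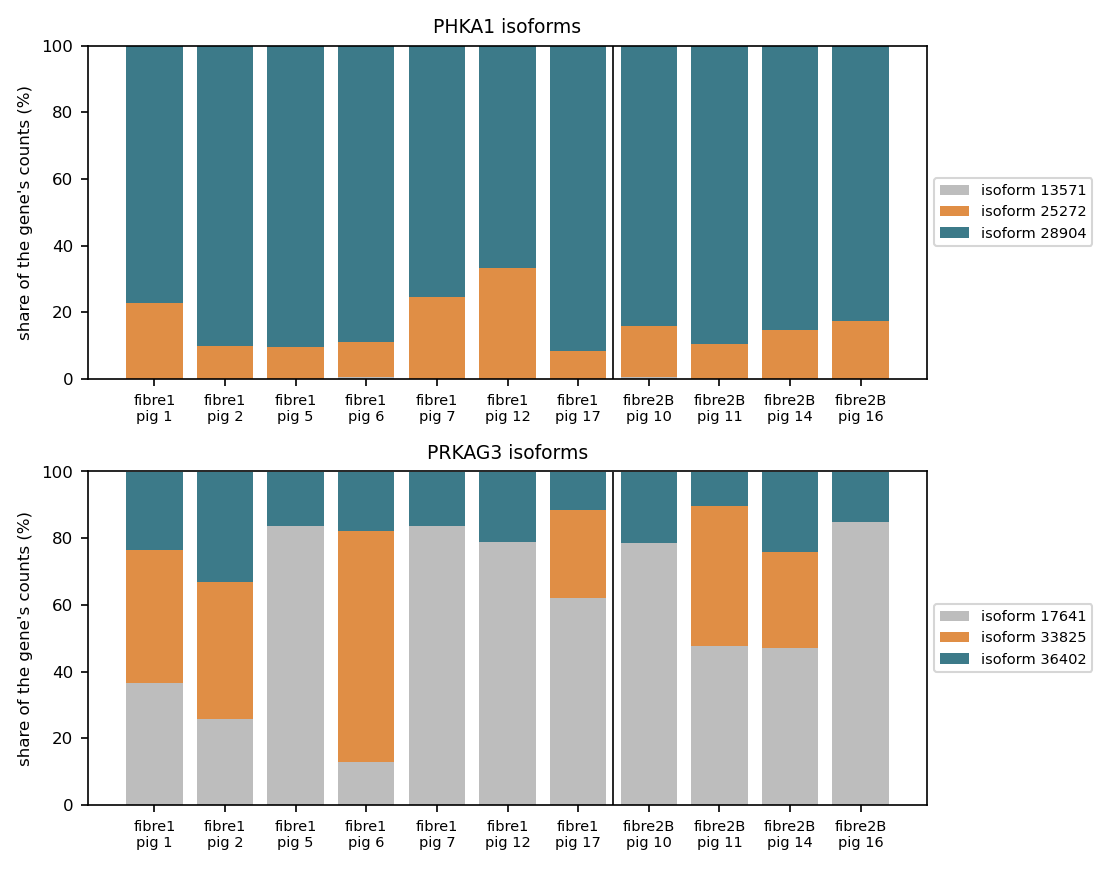
Share of each gene's reads (y axis, percent) held by each of its 3 isoforms in PHKA1 (upper) and PRKAG3 (lower), with 1 bar per pig, fibre1 pigs left of the line and fibre2B pigs right of it; isoforms are named by the last digits of their IDs. The middle isoform of PRKAG3 is at 0 in 5 pigs and reaches 69.3% in fibre1 pig 6.

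Around the 9 genes, 62 other genes of the glycogen pathway were listed by role, of which 47 had an ID and 39 were tested. Of these 39, 7 were higher and 1 was lower in fibre1, beside 4.38% and 4.63% of all genes tested. The median log2 fold change was 0.20, beside 0.0073 over all genes, with 24 above 0 and 15 below. In 5 of the 39 the groups did not overlap, beside 7.55% of all genes tested. The list was drawn up with earlier results of these data known, so these shares are a description only. The 8 untested genes, among them the liver synthase GYS2 with 11 reads and the brain phosphorylase PYGB with 27 reads in all pigs, had too few counts.

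Of the called genes, 1 was listed with AMPK, 2 in the adrenergic branch, 1 in the insulin branch and 1 among the synthase kinases. STK11 (ENSSSCG00000013429), the kinase LKB1 that activates AMPK, ran from 27.3 through a median of 42.3 to 56.8 CPM in fibre1, against 19.4, 21.6, 18.2 and 18.4 CPM in fibre2B pigs 10, 11, 14 and 16. All fibre1 pigs were above all fibre2B pigs. Its log2 fold change was 1.10 ± 0.18 (edgeR adjusted p = 0.0159). PRKACA, the catalytic subunit of protein kinase A, through which adrenaline activates phosphorylase kinase, averaged 89.3 ± 26.4 CPM in fibre1 and 43.5 ± 6.65 CPM in fibre2B (log2 fold change 1.04 ± 0.21, adjusted p = 0.0190). ADCY9, an adenylyl cyclase that makes the cyclic AMP for that kinase, averaged 5.35 ± 1.48 CPM in fibre1 and 2.46 ± 1.05 CPM in fibre2B (1.11 ± 0.28, adjusted p = 0.0323). AKT2, the insulin-signalling kinase that restrains glycogen synthase kinase, averaged 75.8 ± 19.5 CPM in fibre1 and 41.5 ± 5.83 CPM in fibre2B (0.87 ± 0.19, adjusted p = 0.0237). GSK3A, one of the kinases that inactivate glycogen synthase, averaged 17.6 ± 3.17 CPM in fibre1 and 11.4 ± 1.78 CPM in fibre2B (0.62 ± 0.17, adjusted p = 0.0430). Activators and inhibitors of the synthase were thus both among the genes higher in fibre1.

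CALM3 and CALM2, which both encode calmodulin, went in opposite directions. CALM3 averaged 702 ± 208 CPM in fibre1 and 408 ± 53.3 CPM in fibre2B (log2 fold change 0.78 ± 0.22, edgeR adjusted p = 0.0421). CALM2 averaged 211 ± 34.0 CPM in fibre1 and 363 ± 84.2 CPM in fibre2B (-0.78 ± 0.17, adjusted p = 0.0224), with the groups apart. CALM2 and CALM3 encode the same protein and are related copies. How reliably reads were divided between them was not tested. PPP1R3F, a relative of PPP1R3A among the phosphatase targeting subunits, averaged 3.92 ± 1.08 CPM in fibre1 and 1.95 ± 0.271 CPM in fibre2B (1.0003 ± 0.233, adjusted p = 0.0254).

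Several of these calls were lost when pigs were left out. Without fibre2B pig 14, where 0 genes passed in the whole table, all 8 lost theirs (adjusted p = 0.0574 for STK11 and up to 0.135 for GSK3A). Their log2 fold changes there were 1.08 for STK11, 0.95 for PRKACA, 1.02 for ADCY9, 0.96 for AKT2, 0.55 for GSK3A, 0.86 for CALM3, -0.62 for CALM2 and 0.93 for PPP1R3F, all with the same sign as with all pigs. The number of genes past an unadjusted p of 0.05 in that setting was 2436. Without fibre1 pigs 5 and 6 together STK11 was the 1 gene still called. Leaving out fibre2B pig 16 also ended the calls of ADCY9, AKT2, CALM2, CALM3, GSK3A and PPP1R3F, and leaving out fibre2B pig 10 or fibre1 pig 2 those of ADCY9, AKT2, CALM3, GSK3A and PPP1R3F. ADCY9, CALM3 and GSK3A lost theirs without fibre1 pig 1, 5 or 6 too, CALM3 without fibre2B pig 11 and GSK3A without fibre1 pig 7. Scaling by library totals ended the calls of ADCY9, AKT2, CALM3, GSK3A and PPP1R3F. Adding that top-10 share as a covariate ended those of ADCY9, CALM3 and GSK3A, no filter those of CALM3 and GSK3A, and upper-quartile factors or limma-voom that of GSK3A.

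The remaining named genes of the pathway did not pass. At the start of the glycogen chain, GYG1, the glycogenin primer on which a chain is begun, averaged 404 ± 34.8 CPM in fibre1 and 412 ± 29.0 CPM in fibre2B (log2 fold change -0.03 ± 0.12). PYGL, the liver phosphorylase, had a log2 fold change of 0.35 ± 0.24. Of the phosphoglucomutase family, PGM2 had -0.84 ± 0.28 (edgeR adjusted p = 0.0737) and PGM2L1 -0.29 ± 0.23. PPP1R3C, another phosphatase targeting subunit, had 0.79 ± 0.32 (adjusted p = 0.126), opposite in sign to PPP1R3A. The phosphatase 1 catalytic subunit genes PPP1CA and PPP1CB had 0.22 ± 0.12 and -0.10 ± 0.15. GSK3B had 0.30 ± 0.22, the AMPK alpha subunit gene PRKAA1 -0.46 ± 0.18 (adjusted p = 0.106) and the lysosomal glucosidase gene GAA 0.45 ± 0.23. On the way of glucose into the cell, hexokinase HK1 had 0.51 ± 0.21 (adjusted p = 0.132), the transporter SLC2A12 -0.51 ± 0.26 and the insulin receptor substrate IRS1 0.69 ± 0.22 (adjusted p = 0.0649).

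**Figure D5:**
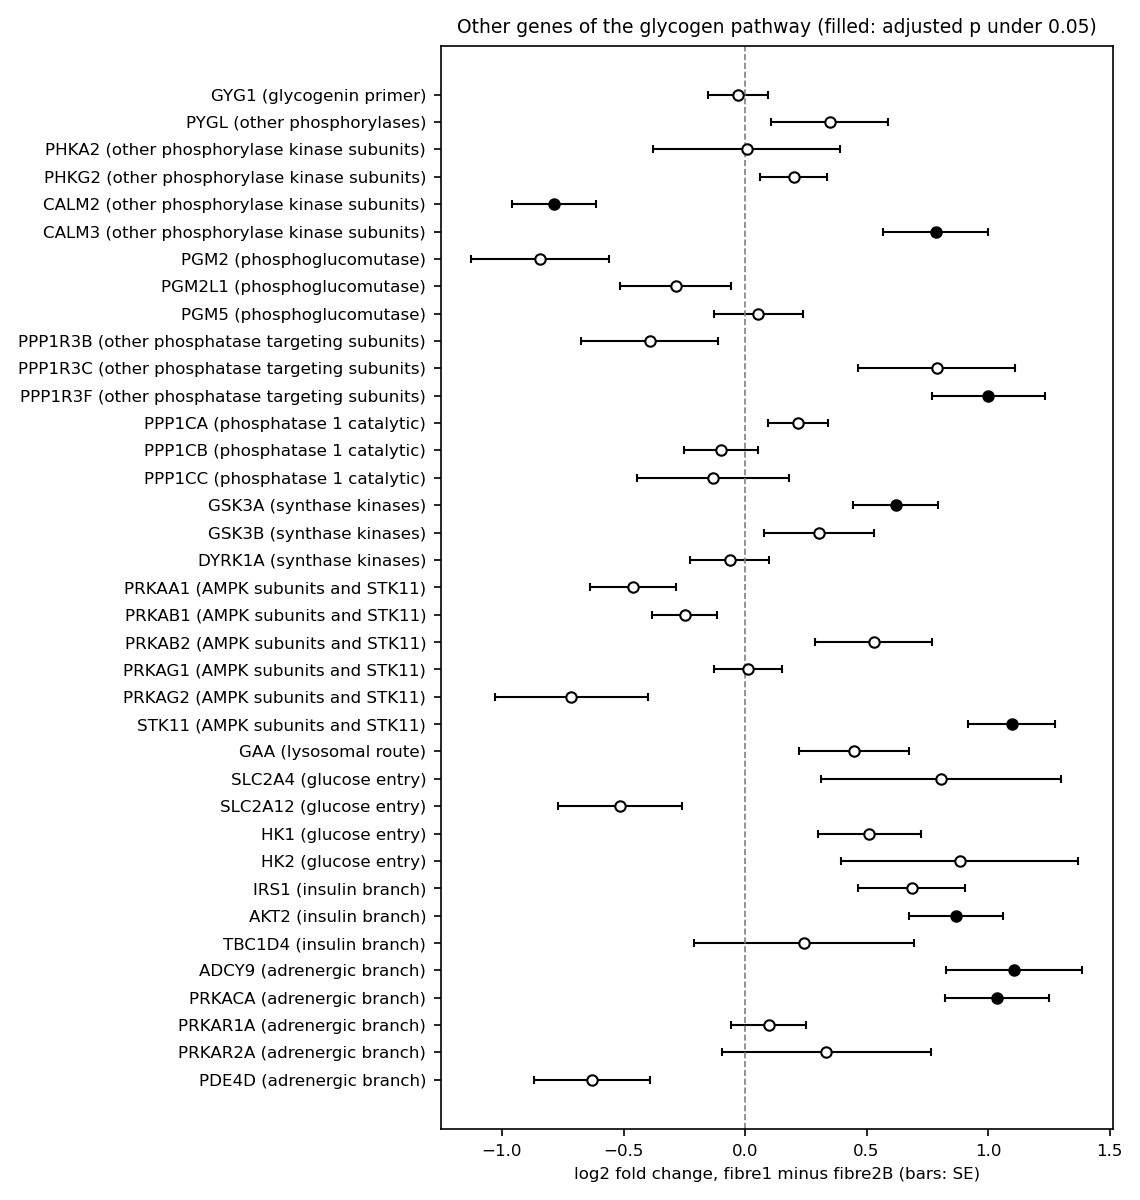
Log2 fold change of fibre1 over fibre2B (x axis, bars of 1 SE) of other tested genes of the glycogen pathway, grouped by role, filled where the edgeR adjusted p was under 0.05. Of the 8 filled points 7 lie above 0, with STK11 and ADCY9 at about 1.1, and CALM2 lies below 0.

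Markers of other cell types were summed beside these results. Fibroblast markers (5 of 6 with an ID) summed to 472 to 976 CPM in fibre1 and 743 to 1437 CPM in fibre2B, and blood markers (2 of 3) to 137 to 467 CPM in fibre1 and 423 to 954 CPM in fibre2B. Both were lower in 5 of 7 fibre1 pigs than in any fibre2B pig. Leukocyte markers (3 of 5) summed to 2.85 to 9.57 CPM in fibre1 and 6.41 to 16.1 CPM in fibre2B, and endothelial markers (4 of 6) to 61.5 to 126 CPM in fibre1 and 72.3 to 113 CPM in fibre2B. Adipocyte markers (3 of 6) reached at most 7.72 CPM in fibre1 and 8.80 CPM in fibre2B, and nerve markers (2 of 3) at most 1.75 CPM in fibre1 and 2.08 CPM in fibre2B. Liver markers (4 of 4) ranged over 11.9 to 47.1 CPM in fibre1 and 18.3 to 186 CPM in fibre2B. Of the markers tested, 2 of 4 for fibroblasts, 1 of 2 for blood and 1 of 3 for adipocytes passed edgeR's test. All of these were lower in fibre1, as were 4.63% of all genes tested. No endothelial, leukocyte, nerve or liver marker passed. The part of these cells in the values of GYS1 and the other glycogen genes was not tested.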

How the data were processed

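Muscle went into RNAlater after slaughter, and 300 ng of total RNA per pig entered the TruSeq kit, per the labels' protocols. Reads were single-end, of 50 cycles, on a HiScan SQ in 5 technical repetitions per the design text, while the tables hold 1 column per pig. The values are expected counts (estimated reads per gene or isoform, not normalized), deposited without decimals, so rounding changed nothing. The submitters' processing notes name CASAVA 1.8.2, FastQC, STAR, RSEM, edgeR, DESeq2 and Sscrofa10.2, with no roles or order. Positions and sequences are not used here. Of 25322 genes, 6508 were at 0 in every pig and 11804 had a symbol.

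Genes were tested over all 11329 that passed filterByExpr, with edgeR 4.0.16 in R 4.3.3 (TMM factors, quasi-likelihood F test, no covariate, Benjamini-Hochberg adjusted p of 0.05). The standard error is the size of the log2 fold change over the square root of F. Isoforms were tested likewise. They were joined to genes by runs of up to 15 neighbouring entries whose counts sum to the gene's, or fall short by at most 1 per isoform, in every pig, so the join is inferred (20101 joined, 2450 with counts not). The replicates are animals, and any 2 of them differed by far more than sampling noise (chi-square over its degrees of freedom at least 30.83). The biological coefficient of variation was 29.8%. The procedure was tested on simulated data, with counts drawn for each gene on its own. Of the genes changed there, it recovered 33% at 2-fold and 86% at 4-fold, and 5.56% of its calls were false. Differences shared by many genes within a pig were not simulated, so these rates need not hold for the real data. A gene that did not pass is thus not shown to be unchanged.

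The members and lists were chosen with earlier results of these data known. Named were all members, every called gene of the pathway list and the 2 smallest p per role, and the 3 genes most like GYS1, PYGM and PRKAG3. Some genes of the list are counted but not reported here by name. Alternatives were RLE and upper-quartile factors, library totals, 2 filters, DESeq2 1.42.0, limma 3.58.1 voom plain or with quality weights, a robust fit, 1 surrogate variable (sva 3.50.0), the share of the 10 most abundant genes (top-10 share) as a covariate, dropping those genes together with mitochondrial ones, and leaving out pigs.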

Additional observations from a re-analysis of the deposited data

Results flagged for a closer look

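In 48 sets of values per group, Dixon's test at 95% marked 4 in which a single pig stood far from the others, and chance marks about 1 in 20 such sets. Fibre1 pig 12 had 59.9 UGP2 reads per 100 GYS1 reads, where the other fibre1 pigs had 13.5 to 32.7. Fibre2B pig 10 had 75.5 PHKB reads per 100 PHKA1 reads, where the other fibre2B pigs had 68.8 to 69.5. Isoform ENSSSCT00000013571 of PHKA1 had 0.633% of the gene's reads in fibre1 pig 6 and 0.504% in fibre2B pig 10, and was at 0 in the other 9 pigs. Where all other pigs of a group are at 0, any count above 0 is marked. The chance rate therefore does not apply to the marks of this isoform.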

How the results depend on the processing

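No paired analysis was possible because no replicate number occurs in both groups. The number of genes called was 1021 and moved most with the pigs used: 28 without fibre1 pigs 5 and 6 together, and 0 to 1548 with single pigs left out. The 0 came without fibre2B pig 14, where 2436 genes had an unadjusted p under 0.05; other tools were not run without that pig. It was 157 with library totals (53 higher and 104 lower in fibre1, against 496 and 525), 484 with the top-10 share as covariate, 1628 with 1 surrogate variable, 1740 with DESeq2 and 1748 with quality weights. Of the 9 members, 2 were called with quality weights or 1 surrogate variable, 0 without pigs 5 and 6, and 0 to 2 with single pigs left out. Of the other pathway genes, called in 8 cases, the count was 3 with library totals, 5 with the covariate, 1 without pigs 5 and 6 and 0 to 11 with single pigs left out. Isoform calls were 658, but 1 without pigs 5 and 6 and 0 to 1063 with single pigs left out. Usage calls were 8, but 4 with the CPM filter and 0 to 11 with single pigs left out. The sign turned for GBE1 (0.0304 with voom, 0.0409 with quality weights, 0.0727 with the covariate, 0.15 without pigs 5 and 6, -0.26 to 0.35 with single pigs left out), PHKA1 (-0.13 to 0.0618 with single pigs left out) and PHKG1 (-0.0314 with upper-quartile factors, -0.24 with library totals, -0.0094 with voom, -0.0474 with 1 surrogate variable, -0.16 with the covariate, -0.15 without pigs 5 and 6, -0.0808 to 0.12 with single pigs left out). Relative to the median of all genes, library totals gave PHKG1 -0.06. The causes were not tested. Promoter motifs were not run. GBE1 had only 6 to 44 reads per pig, and its spread between pigs was not separated from counting error.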
